A study of Mus musculus with 14 samples.

Results

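The comparison described here is that of a duodenal tumor with the normal duodenum next to it in the same mouse. Its members were chosen by the mouse named in the labels: every mouse with both a tumor array and an adjacent array entered, which gave 5 mice and 10 of the 14 arrays of the series. The series as a whole held 9 mice, with 6 tumor arrays, 5 adjacent arrays and 3 wildtype arrays. Both tissues came from mice with a CreERT2 insertion in both copies of Lrig1 (Lrig1-CreERT2/CreERT2, Lrig1-/-) on a background of 129S7/SvEv and C57/BL6, so the lack of Lrig1 was common to both sides of the comparison. The mice were age matched, with no age stated, no treatment was named, and both tissues came from the proximal duodenum. The tumors were adenomas, and the adjacent tissue was labelled normal duodenal epithelium. The 5 mice were F536, F560, B650, B648 and B562, and values listed per mouse follow that order. Total RNA was read on the Affymetrix Mouse Gene 1.0 ST array, and levels are log2 signal, so a difference of 1 is 2-fold.

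Lrig1 encodes a membrane protein that dampens ErbB receptor signalling and marks a pool of stem cells at the crypt base. The proximal duodenum receives acid, bile and pancreatic juice. Its villi are covered by enterocytes that digest and absorb, and under the mucosa lie Brunner glands, which secrete mucus and bicarbonate. Intraepithelial lymphocytes sit between the enterocytes. Adenomas are benign epithelial growths that can lose the digestive programme of the villus.

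Lrig1 was read first as a check of the genotype labels. Both tissues lack it, so it is no check of which array is tumor. The other genes of this paragraph describe the arrays and are no separate check of the labels. Lrig1 (transcript cluster 10546510) read 7.14, 7.40, 7.31, 7.21 and 6.95 in adjacent tissue and 7.85, 8.54, 8.29, 8.15 and 7.65 in the tumors. The tissues did not overlap. Every adjacent value lay below the 9.54, 9.34 and 8.22 of the wildtype mice, while the tumors of F560 and B650 lay above the lowest of these. The difference within a mouse was 0.89 ± 0.09 (SE, n = 5 mice; limma adjusted p = 0.000408). Which exons the array's probes read relative to the insertion was not tested. Genes of the enterocyte list averaged 11.71 to 13.06 in adjacent arrays and 9.69 to 10.05 in tumor arrays. Epcam, an adhesion protein of all gut epithelium that was chosen after its values were seen, averaged 12.24 ± 0.11 (SD, n = 5) in adjacent tissue and 12.27 ± 0.13 in tumors (adjusted p = 0.818). The adjacent arrays of F536 and F560 also carried 12 genes of pancreatic acinar cells at list means of 13.22 and 14.11, against 7.39 to 7.47 in the other 3 adjacent arrays and 7.26 to 8.87 in the tumors. Genes of smooth muscle averaged 9.13 to 10.11 in adjacent tissue, so it held more than epithelium. In the tumors of B650 and B562 they averaged 8.33 and 8.84, and in the other 3 tumors 9.65 to 10.37.

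Across 19938 named genes, limma with each mouse as its own block called 5575 genes (28%) at an adjusted p under 0.05. Of all genes 3356 (16.8%) rose and 2219 (11.1%) fell in the tumor. A rise of at least 2-fold was called for 671 genes (3.37%) and a fall of at least 2-fold for 645 (3.24%). Changes of at least 4-fold were called for 192 genes upward and 181 downward, and changes of at least 16-fold for 33 and 14. The tissues did not overlap at all for 3742 genes (18.8%), and in 7225 genes the 5 mice shared a direction, 4570 up and 2655 down. The split of the calls depended on scaling: 60.2% of them were rises on the values as deposited, 51.6% after quantile normalization and 46.4% with each array shifted to the same median. The median difference of all genes was 0.05, 0.00 and -0.03 on these 3 scales, so small shifts of gene lists depend on the scale, and several are given on the shifted scale too. With 5 mice an exact sign-flip test of a single gene cannot go below p = 0.0625, and the calls therefore rest on limma's spread shared across genes.

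The size of the whole response differed between mice. The SD over genes of the tumor minus adjacent difference was 0.54 in F536, 0.71 in F560, 0.72 in B650, 0.77 in B648 and 0.66 in B562. Genes at or past 2-fold numbered 550 up and 418 down in F536 and 1078 up and 967 down in B648. Over genes, the differences of any pair of mice correlated at r = 0.63 to 0.87. The highest of these values lay among the 3 mice whose ID begins with B (0.82 to 0.87), and the lowest joined F560 with those mice (0.63 to 0.67). Genes are not independent replicates, and these correlations are a description. Of the genes changed at least 2-fold, 517 risen and 477 fallen ones belonged to none of the 66 lists of marker and pathway genes used here.

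**Figure D1:**
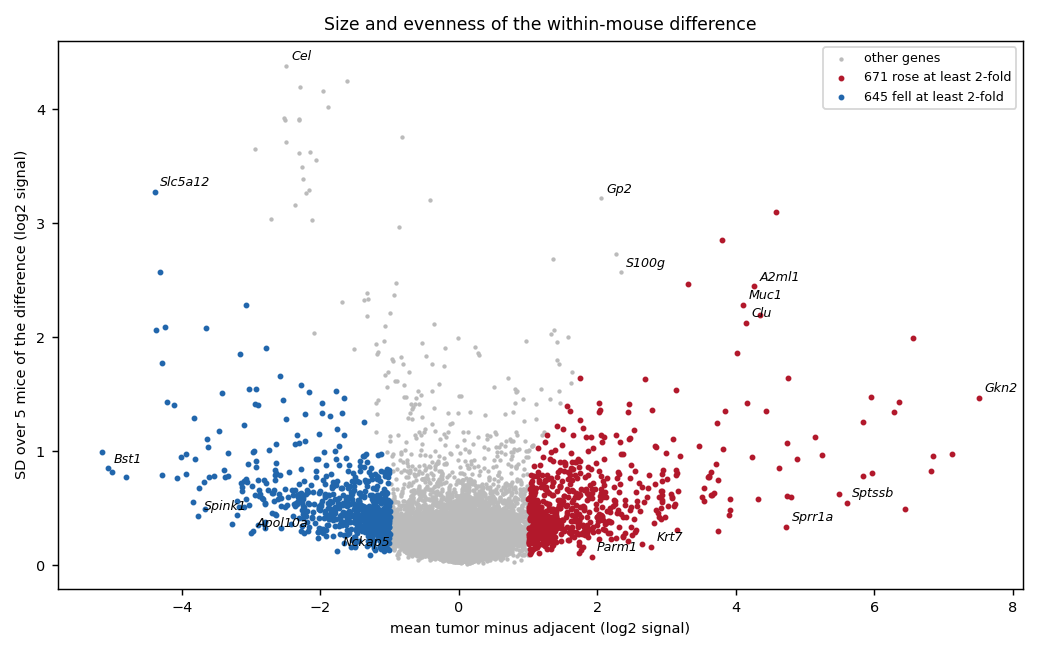
Mean tumor minus adjacent difference (horizontal, log2 signal) against the SD of that difference over the 5 mice (vertical, log2 signal) for 19938 genes. Red points are the 671 genes that rose at least 2-fold, blue points the 645 that fell at least 2-fold, and grey points all others; Sprr1a, Krt7 and Parm1 lie low because the 5 mice nearly coincide, while grey points with a high SD such as Cel changed in some mice only.

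Of the strongest rises outside the known stomach genes, 3 single genes act on membrane lipids, a class for which no list was counted. Sptssb, a small subunit of the enzyme that starts sphingolipid synthesis, read 7.12, 6.52, 6.17, 6.44 and 5.86 in adjacent tissue and 11.79, 12.56, 12.06, 12.04 and 11.67 in tumors. Every tumor lay far above every adjacent sample, and the mean rise was 5.60 ± 0.19 (SE; 48.6-fold; adjusted p = 1.87e-05). Mboat1, which attaches fatty acids to lysophospholipids, read 8.76, 7.67, 7.47, 7.22 and 7.32 against 12.08, 12.02, 12.21, 11.78 and 11.95, a rise of 4.32 ± 0.20. Its tumor values lay close together, and the smaller difference in F536 came with a higher adjacent level. Lpcat4, a second acyltransferase of lysophospholipids, read 8.33 to 8.81 in adjacent tissue and 10.97 to 11.56 in tumors, a rise of 2.64 ± 0.09. Of the prostaglandin and leukotriene list, Pla2g4c, a phospholipase A2 that frees fatty acids from membranes, rose as well (4.34 ± 0.72, adjusted p = 0.00371) but unevenly. Its tumor levels were 11.03, 7.81, 13.42, 12.93 and 10.95, so that the tumor of F560 lay below the adjacent sample of F536 (8.57).

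The cholesterol synthesis list also rose. Of 19 measured enzymes of this pathway 14 rose and 0 fell, with a median difference of 0.76 against 0.05 over all genes. Squalene epoxidase (Sqle) rose by 1.17 ± 0.17, squalene synthase (Fdft1) by 1.15 ± 0.15, Cyp51 by 1.13 ± 0.16 and lanosterol synthase (Lss) by 1.0 ± 0.12. The adjacent samples of F536 read high for some of these enzymes: Fdft1 was 12.03 there and 10.77 to 11.18 in the other 4, while the tumors lay between 12.04 and 12.50. With arrays shifted to the same median 13 of 19 rose, in the 3 mice of ID letter B 14 rose and 1 fell, and in the 2 of letter F 4 rose.

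Structural proteins of squamous and simple epithelia formed a second group. Sprr1a, a small proline-rich protein of the cornified envelope that also appears in injured epithelium, had the steadiest large rise. It read 9.28, 9.35, 8.78, 8.74 and 8.57 in adjacent tissue and 13.75, 13.62, 13.67, 13.63 and 13.67 in tumors. The tumor values had an SD of 0.05, and the rise was 4.72 ± 0.13 (26.4-fold; adjusted p = 1.04e-05). The highest value anywhere in the table was 14.72.

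The promoter of Sprr1a is shown because it held 2 copies of the core letters of AP-1, the transcription factor made of Fos and Jun proteins. The window runs from 250 bases before the RefSeq start to the base before it, at chr3:92485882-92486131 of GRCm38.p6 on the minus strand, and the capitals mark TGAGTCA, the opposite-strand spelling of TGACTCA. The copies start 146 and 116 bases before the gene.
Sprr1a: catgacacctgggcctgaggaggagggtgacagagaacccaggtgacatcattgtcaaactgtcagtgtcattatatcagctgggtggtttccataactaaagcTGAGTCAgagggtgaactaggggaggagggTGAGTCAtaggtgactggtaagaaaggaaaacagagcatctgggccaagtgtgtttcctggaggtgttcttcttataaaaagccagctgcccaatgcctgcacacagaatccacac

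Some genes have more than 1 RefSeq start, and a gene was counted once if any of its windows held the letters on either strand. They were found in 4.75% of the 15614 tested genes with a promoter, in 8.93% of 504 such genes that rose at least 2-fold and in 7.65% of 497 that fell as much. A match is a spelling in a window and was not tested as a binding site. Fosl1, a Fos-family member of AP-1 that ERK signalling induces, rose by 1.58 ± 0.26 in the tumors (adjusted p = 0.00333).

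Keratins, the filaments of epithelial cells, rose in 9 of 15 measured members and fell in 1. Krt7, a keratin of ducts and of simple epithelium outside the intestine, read 9.01, 9.31, 9.77, 9.65 and 9.63 against 11.97, 12.10, 12.57, 12.16 and 12.46. The order of the mice was nearly kept from adjacent tissue to tumor. The rise of 2.78 ± 0.08 (6.86-fold) ran from 2.52 to 2.96 over the mice. Krt23 rose by 2.27 ± 0.10 and Krt18 by 1.94 ± 0.11, while Krt20, a keratin of mature villus and surface cells, fell by 0.47 on the log2 scale. In the list of cornified envelope and squamous genes 9 of 17 rose and 0 fell, with Ppl at 1.29 ± 0.13, involucrin (Ivl) at 1.16 ± 0.14 and Sprr1b at 1.09 ± 0.11 far behind Sprr1a. Annexins, which bind membranes in a calcium-dependent way, rose in 7 of 11 members and fell in 0. Anxa1 rose by 3.91 ± 0.17, Anxa3 by 3.75 ± 0.12 and Anxa8 by 3.59 ± 0.26. Cavin3, a coat protein of caveolae, read 8.82 to 9.29 in adjacent tissue and 11.19 to 11.69 in tumors (2.45 ± 0.10). Genes of basement membrane and integrins rose in 11 of 26 members and fell in 0, led by the collagen receptor subunit Itga2 (1.74 ± 0.07), the laminin chain Lama3 (1.39 ± 0.16) and the integrin chain Itgb6 (1.33 ± 0.08).

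**Figure D2:**
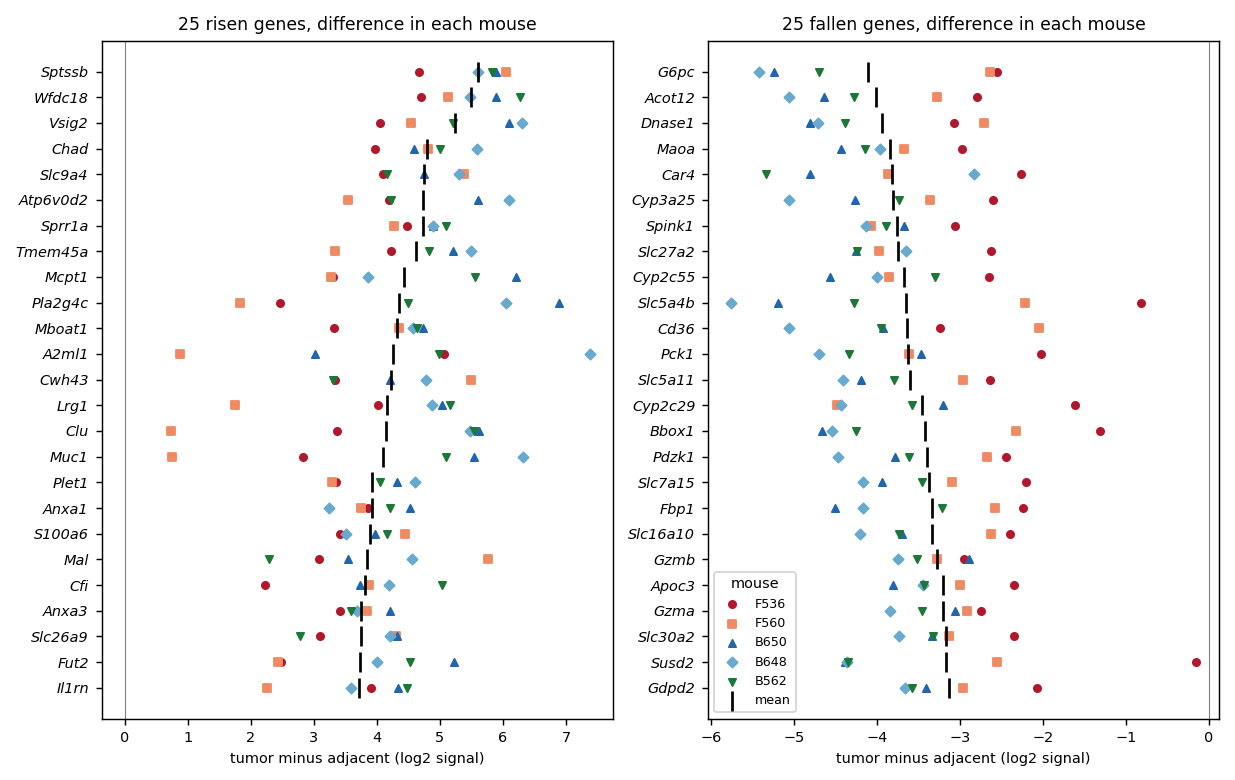
Tumor minus adjacent difference (horizontal, log2 signal) in each of the 5 mice for the 25 risen genes (left) and the 25 fallen genes (right) with the largest mean among genes outside the stomach, enterocyte and acinar lists; coloured symbols are mice and black bars the mean over 5 mice. Sprr1a and Spink1 show tight rows, Clu and Muc1 are spread because F560 moved by only 0.74 in each, and most fallen genes fell least in F536 or F560.

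Transporters of ions, acid and water were changed in both directions: 17 of 35 measured members rose and 6 fell. Slc9a4, a sodium-proton exchanger known from the stomach, read 7.09, 6.75, 6.66, 6.68 and 6.70 in adjacent tissue and 11.19, 12.14, 11.41, 11.98 and 10.85 in tumors (4.74 ± 0.21). Slc9a3, the exchanger of the intestinal brush border, went from 12.28, 11.50, 12.08, 11.86 and 11.49 to 10.10, 10.41, 10.41, 9.16 and 9.48 (-1.93 ± 0.21). Neither gene's tissues overlapped. The chloride and bicarbonate transporter Slc26a9 rose by 3.74 ± 0.25, the chloride channel Ano1 by 3.16 ± 0.22 and the water channel Aqp5 by 3.62 ± 0.26. The water channels Aqp7 and Aqp8 fell, with differences of -3.05 ± 0.30 and -1.95 ± 0.33, as did the chloride channel-like protein Clic5 (-2.01 ± 0.22). Of the carbonic anhydrases, which make bicarbonate, cytosolic Car2 rose by 2.46 ± 0.37 and reached 13.07 to 13.43 in tumors from 9.59 to 12.43 in adjacent tissue. Membrane-bound Car4 fell from 10.08, 12.29, 13.09, 13.08 and 12.99 to 7.81, 8.43, 8.29, 10.25 and 7.65 (-3.82 ± 0.43). The tissues overlapped for Car4 because the tumor of B648 lay above the adjacent sample of F536. Atp6v0d2, a subunit of the vesicle proton pump, rose from 5.25 to 5.85 in adjacent tissue to 9.03 to 11.84 in tumors (4.74 ± 0.36).

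Enzymes that decorate mucins rose in 15 of 28 measured members and fell in 3. A4gnt, which caps the gland mucin, rose by 4.89 ± 0.31. Fut2, the fucosyltransferase behind H-type sugar chains on mucus, read 9.73, 10.44, 7.79, 9.08 and 7.88 against 12.21, 12.88, 13.01, 13.07 and 12.41 (3.73 ± 0.41). Its adjacent level was highest in F536 and F560, and its tumor level was similar in all mice. Gcnt3, a branching enzyme of mucin chains, rose by 2.55 ± 0.12 and Galnt3, which starts such chains, by 1.86 ± 0.10. Regulators of secretory lineages were mixed, with 3 of 13 risen and 4 fallen and a median of -0.27; 2 fell without B650 and 1 each without B648 or B562. Single genes known from mucus cells rose. The membrane-bound transcription factor Creb3l4 rose by 2.91 ± 0.22, its relative Creb3l1 by 2.40 ± 0.18, the stress sensor of mucus cells Ern2 by 2.57 ± 0.19 and the mucus-cell regulator Spdef by 2.09 ± 0.21. Over the list of folding and secretion genes, which holds both Creb3l genes and Ern2, the change was smaller, with 10 of 30 risen and 1 fallen and a median of 0.15. With arrays shifted to the same median 9 rose, 3 fell and the median was 0.06. The intestinal mucin Muc2, named after its value was seen, did not pass (-0.46 ± 0.17, adjusted p = 0.0799).

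Secreted inhibitors of proteases and proteins of complement and clotting were also among the strongest rises. Wfdc18, a small secreted protein with a protease-inhibitor fold, read 7.95, 6.99, 6.46, 6.97 and 6.2 against 12.65, 12.12, 12.36, 12.45 and 12.47 (5.49 ± 0.21, 45.0-fold). Wfdc2 rose by 3.64 ± 0.28 and Serpinb5 (maspin) by 3.16 ± 0.27, and in all 14 of 32 genes for proteases and their inhibitors rose while 2 fell (1 without F536, B650 or B648). The larger of the falls was in Spink1, a trypsin inhibitor, from 11.99, 12.72, 12.27, 12.18 and 11.75 to 8.93, 8.65, 8.60, 8.05 and 7.86 (-3.77 ± 0.16, 13.6-fold). In the 3 B mice its differences ran from -3.67 to -4.13. In complement and coagulation 10 of 24 genes rose and 3 fell. Complement factor I (Cfi), which inactivates complement on surfaces, rose by 3.81 ± 0.34, coagulation factor F5 by 3.13 ± 0.27, tissue factor (F3), the starter of clotting, by 2.93 ± 0.22, and the urokinase receptor Plaur by 2.87 ± 0.16. Complement C6 fell (-0.83 ± 0.12). Lrg1, a secreted leucine-rich glycoprotein, rose by 4.17 ± 0.47, with adjacent levels of 7.51 to 7.65 in 4 mice and 9.74 in F560 and tumor levels of 11.48 to 12.67.

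Genes of innate sensing moved in both directions, with 11 of 28 risen and 6 fallen, or 9 and 7 with arrays shifted to the same median. The peroxide-producing oxidase Duox2 read 7.63, 7.48, 8.22, 8.90 and 8.11 in adjacent tissue and 10.27, 10.03, 12.24, 11.97 and 11.21 in tumors (3.08 ± 0.20), and its maturation factor Duoxa2 rose by 3.69 ± 0.22. The lipopolysaccharide receptor Tlr4 rose from 5.31 to 5.90 in adjacent tissue to 8.02 to 9.0 in tumors (3.11 ± 0.18). The inflammasome sensor Nlrp6 fell from 11.18 to 11.45 to 9.38 to 10.50 (-1.44 ± 0.14), and inducible nitric oxide synthase (Nos2) changed by -1.0 ± 0.17. Retnlb, a goblet cell protein that damages bacteria, rose by 3.02 ± 0.18. Cytokines also split, with 12 of 39 risen and 5 fallen, or 9 and 7 on the shifted scale. The risen count rested on single mice: it was 7 without B650, 6 without B562 and 1 in the F mice alone. Il15, which sustains intraepithelial lymphocytes, fell from 9.23, 8.5, 9.5, 9.74 and 9.53 to 7.60, 7.38, 7.21, 7.15 and 7.02 (-2.03 ± 0.22). The gut-homing chemokine Ccl25 changed by -1.56 ± 0.21, and the interferon-induced chemokines Cxcl9 and Cxcl10 by -1.86 ± 0.16 and -1.33 ± 0.13. In the prostaglandin and leukotriene list 7 of 23 rose and 1 fell, with Ptgs2 at 2.09 ± 0.31 and the prostaglandin-degrading enzyme Hpgd at -0.70 ± 0.19; its median was 0.07, and -0.02 with arrays shifted to the same median. The single fallen gene did not pass in the fits that left out F536, B650, B648 or B562.

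Transcription factors of gut identity changed in both directions. Foxa1, a forkhead factor of foregut and of secretory cells, read 9.05, 8.65, 8.99, 9.01 and 8.79 against 11.90, 12.15, 12.19, 12.39 and 11.60 (3.15 ± 0.12, 8.88-fold). In the list of intestinal and foregut regulators 7 of 20 rose and 4 fell, with Foxq1 (1.52 ± 0.28) and Foxa3 (1.47 ± 0.18) behind Foxa1, and Isx (-0.97 ± 0.16), Gata6 (-0.66 ± 0.12) and the intestinal factor Cdx2 (-0.51 ± 0.11) lower. Nuclear receptors, which read lipids and bile acids, fell in 15 of 28 and rose in 4, with a median of -0.61. The xenobiotic receptor Nr1i3 fell from between 9.85 and 11.14 in adjacent tissue to between 7.79 and 8.81 in tumors (-2.0 ± 0.19). Hnf4g, a regulator of enterocyte genes, fell from 12.20 to 12.64 in adjacent tissue to 10.60 to 11.63 in tumors (-1.41 ± 0.15), whereas its relative Hnf4a, named after its value was seen, lay at 12.93 ± 0.12 and 12.90 ± 0.15 (SD, n = 5; difference -0.03 ± 0.07, adjusted p = 0.797). Ppara changed by -1.13 ± 0.19 while Pparg rose by 1.19 ± 0.14 and the immediate early receptors Nr4a1 and Nr4a2 by 1.13 ± 0.09 and 1.20 ± 0.14.

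Lists of growth machinery had small positive medians of the mean difference, beside 16.8% of all genes risen. The median of the cell cycle list was 0.56, 0.34, 0.52, -0.13 and 0.09 in the 5 mice, so below 0 in B648. Ribosome biogenesis genes rose in 17 of 27 members and fell in 0 (median 0.35), cytosolic ribosomal proteins in 11 of 21 (median 0.26) and cell cycle and replication genes in 8 of 31 (median 0.25), with 0 fallen in each. These counts were sensitive to scaling and to which mice entered. With arrays shifted to the same median, 11, 4 and 5 members rose and 0, 0 and 1 fell. In the 3 mice of ID letter B, 11, 13 and 2 rose, and in the 2 of letter F 0, 0 and 4. With 1 mouse left out, biogenesis genes risen numbered 10 without F536 and 9 without B650. Risen ribosomal proteins numbered 7 without F536, B648 or B562 and 17 without F560. Risen cell cycle genes numbered 5 without F536 or F560, 2 without B650 and 13 without B648. Of the named cell cycle members the kinesin Kif20a rose most (0.56 ± 0.10). In the ErbB and ERK list 17 of 25 rose and 0 fell, with 15 risen and 2 fallen on the shifted scale and 2 fallen without F560. The ERK feedback gene Phlda1 read 8.55, 7.84, 8.66, 8.68 and 8.30 against 11.01, 10.06, 11.21, 11.13 and 11.31 (2.54 ± 0.11), and the ErbB ligand betacellulin (Btc) 7.45 to 7.92 against 9.55 to 10.08 (2.19 ± 0.10).

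On the falling side, metabolic enzymes of the villus were lower. Enzymes of gluconeogenesis and fructose use fell in 9 of 10 measured members and rose in 0, with a median of -2.05. G6pc, which releases free glucose as the last step of gluconeogenesis, read 11.30, 10.16, 11.78, 11.91 and 11.68 in adjacent tissue and 8.75, 7.52, 6.54, 6.49 and 6.97 in tumors (-4.11 ± 0.47, 17.3-fold lower). The fall was smallest in both F mice. Pck1, the entry enzyme of the pathway, changed by -3.63 ± 0.34, fructose bisphosphatase Fbp1 by -3.34 ± 0.33 and ketohexokinase (Khk), which phosphorylates fructose, by -2.26 ± 0.18. The glucose transporter Slc2a1, which serves glucose uptake, rose from 9.95 to 10.66 to 11.88 to 12.53 (2.04 ± 0.16). In the glycolysis and hypoxia list 12 of 24 rose and 5 fell, or 11 and 6 on the shifted scale. Malic enzyme Me1, a source of NADPH, rose by 2.09 ± 0.21 while cytosolic malate dehydrogenase Mdh1 went from 12.35 to 12.70 to 11.41 to 11.49 (-1.09 ± 0.08). Respiratory chain subunits fell in 13 of 31 and rose in 0, but by little (median -0.18), with Sdhb at -0.66 ± 0.09. On the shifted scale 17 fell with a median of -0.27, while 5 fell without B650 or B648, 8 without B562 and 0 in the F mice alone.

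Enzymes that clear drugs and toxins fell in 24 of 28 members and rose in 2 (median -1.52). Maoa, which degrades monoamines, read 12.06, 11.69, 12.44, 12.46 and 12.25 against 9.08, 8.01, 8.0, 8.49 and 8.10 (-3.84 ± 0.19, 14.4-fold lower). The cytochrome Cyp2c55 fell from 8.38 to 9.89 in adjacent tissue to 5.31 to 6.03 (-3.68 ± 0.25); it belongs to a family of similar genes whose probes may share signal. The sulfotransferase Sult1c2 went the other way, from 10.08, 9.27, 7.04, 7.17 and 7.23 to 11.81, 12.63, 11.24, 11.51 and 10.95 (3.47 ± 0.35). Enzymes of purine and pyrimidine metabolism fell in 10 of 17 and rose in 2, with dihydropyrimidine dehydrogenase (Dpyd) at -2.26 ± 0.15 and guanine deaminase (Gda) at -2.23 ± 0.16. Dao, which oxidises D-amino acids, fell from 10.17 to 10.69 to 7.22 to 8.02 (-2.82 ± 0.13). The acetyl-CoA hydrolase Acot12 changed by -4.01 ± 0.32 and Bbox1, the last enzyme of carnitine synthesis, by -3.42 ± 0.50. Fatty acid oxidation and ketogenesis fell in 14 of 25 and rose in 1, and 9 fell without B650.

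Carriers for nutrients changed in both directions. In the amino acid and peptide list 13 of 22 fell and 5 rose (3 without B650). The neutral amino acid carrier of the brush border Slc6a19 fell from 12.30 to 13.03 to 9.71 to 10.39 (-2.80 ± 0.19), the peptide carrier Slc15a1 from 12.56 to 13.50 to 10.37 to 11.02 (-2.48 ± 0.19), and the aromatic amino acid carrier Slc16a10 changed by -3.33 ± 0.26. Slc43a2, a further carrier of neutral amino acids, changed by -3.06 ± 0.25. Those that rose were Slc1a4 (1.21 ± 0.20), Slc38a4 (0.93 ± 0.27), the glutamine carrier Slc1a5 (0.92 ± 0.10), Slc38a1 (0.89 ± 0.22) and Slc38a2 (0.68 ± 0.10), which also carry neutral amino acids. Among exporters and carriers of drugs and organic ions 11 of 20 fell and 3 rose. Abcc2 of the apical membrane fell (-2.36 ± 0.18), and its relatives Abcc1 (1.27 ± 0.10), Abcc4 (1.0 ± 0.17) and Abcc3 (0.51 ± 0.13) rose. Abcc3 did not pass without F560, B650 or B648. The risen count was 2 without F560, B650 or B648 and 4 without B562. The nucleoside carrier Slc28a1 changed by -2.71 ± 0.22, and the zinc carrier Slc30a2 by -3.17 on average.

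Promoter letters were searched in the same 250-base windows for 10 motifs, on both strands. The motif whose share in genes fallen at least 2-fold exceeded that in all genes by the largest ratio was CAAAGTCCA, a spelling of the site of HNF4, the nuclear receptors of gut and liver epithelium. It was found in 0.5% of all genes with a promoter, in 0.397% of risen genes (2 genes) and in 2.62% of fallen genes (13 genes). The 13 were Btnl2, Cd302, Cyp2c67, Cyp2c68, Cyp3a11, Osbpl6, Pilra, Pilrb1, Ptpn22, Sec16b, Slc3a1, Treh and Trim31. Cyp2c67 and Cyp2c68, and Pilra and Pilrb1, are neighbouring relatives and may share this sequence by descent. The GATA letters AGATAA were found in 9.94% of all genes, 7.74% of risen genes and 14.3% of fallen genes. In the same order, the HNF1 letters GTTAATNAT were found in 0.762%, 1.39% and 2.01%. The CDX letters TTTATNG were found in 9.68%, 12.3% and 13.5%, so in both directions above all genes. The interferon-response letters GAAANNGAA were found in 7.99%, 6.94% and 11.3%. The promoters of the 3 of these 13 genes with the largest fall are shown. They are RefSeq sequence on GRCm38.p6, with the matched letters in capitals: Cyp3a11 at chr5:145879855-145880104 (minus strand), Treh at chr9:44672983-44673232 (plus strand, matched on the opposite strand) and Btnl2 at chr17:34354572-34354821 (plus strand).
Cyp3a11: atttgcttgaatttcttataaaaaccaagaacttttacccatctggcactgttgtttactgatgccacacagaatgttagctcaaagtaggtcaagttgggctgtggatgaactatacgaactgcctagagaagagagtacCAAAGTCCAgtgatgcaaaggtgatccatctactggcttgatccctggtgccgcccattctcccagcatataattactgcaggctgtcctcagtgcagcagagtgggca
Treh: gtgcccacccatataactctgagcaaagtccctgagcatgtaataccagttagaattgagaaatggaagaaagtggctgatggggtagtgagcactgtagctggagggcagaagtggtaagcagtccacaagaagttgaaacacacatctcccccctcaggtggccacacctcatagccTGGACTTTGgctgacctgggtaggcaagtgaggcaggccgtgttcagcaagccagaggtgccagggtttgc
Btnl2: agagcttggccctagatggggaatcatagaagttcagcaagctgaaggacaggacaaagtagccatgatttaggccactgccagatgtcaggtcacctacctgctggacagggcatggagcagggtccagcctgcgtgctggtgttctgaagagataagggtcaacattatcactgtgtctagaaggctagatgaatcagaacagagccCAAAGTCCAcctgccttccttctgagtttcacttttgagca

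Cyp3a11, a drug-oxidising cytochrome, read 12.42, 12.50, 12.44, 12.84 and 12.51 in adjacent tissue and 8.68, 8.70, 8.78, 7.45 and 7.64 in tumors. Treh, the trehalose-splitting enzyme of the brush border, read 11.74, 11.72, 12.10, 12.44 and 12.02 against 10.03, 9.17, 9.04, 9.13 and 9.64. Btnl2, a butyrophilin-like protein that restrains T cells, read 12.20, 11.94, 12.33, 12.41 and 12.22 against 10.66, 9.39, 9.65, 9.84 and 10.20. All 3 fell in every mouse with no overlap of the tissues, with mean differences of -4.29, -2.60 and -2.27. Whether HNF4 proteins bind these windows was not tested.

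Genes of antigen processing and interferon response fell in 18 of 26 measured members and rose in 0, with a median of -0.64. In bulk tissue, fewer cells of a type and less RNA per cell cannot be told apart, and the T and NK cell list fell in 19 of 20 members beside them; its list mean was 8.77 to 9.08 in adjacent tissue and 7.0 to 7.59 in tumors, and its part in the fall was not tested. The immunoproteasome subunit Psmb8 read 10.58, 10.26, 10.30, 10.64 and 10.74 against 8.90, 7.93, 8.18, 8.25 and 8.34 (-2.18 ± 0.12). Psmb9 went from 10.15 to 10.87 to 8.59 to 9.30 (-1.48 ± 0.12), the peptide transporter Tap1 from 9.57 to 10.32 to 8.39 to 8.73 (-1.45 ± 0.09) and Tap2 from 9.05 to 9.84 to 8.29 to 8.65 (-1.06 ± 0.14). None of the 4 overlapped between tissues. Of the proteasome list 7 of 27 rose and 0 fell, or 4 rose and 2 fell with arrays shifted to the same median. The risen count was 2 without F536 or without B650, and 0 in the F mice alone.

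These 4 genes, Psmb9, Tap1, Psmb8 and Tap2, are direct neighbours in the RefSeq order. Psmb9 and Tap1 start 225 bases apart and are read away from each other. The stretch between their starts is shown because it lies upstream of both genes of a pair that fell together, at chr17:34187331-34187555 of GRCm38.p6 on the plus strand. None of the 10 motifs, the interferon-response letters GAAANNGAA among them, was spelled in it, and nothing about the factors follows from that.
Psmb9 and Tap1: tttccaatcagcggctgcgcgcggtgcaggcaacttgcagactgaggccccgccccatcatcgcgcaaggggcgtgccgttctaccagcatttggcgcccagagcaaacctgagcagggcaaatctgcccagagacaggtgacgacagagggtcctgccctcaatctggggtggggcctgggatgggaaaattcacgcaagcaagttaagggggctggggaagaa

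Ido1 and Sp100, which interferon is known to induce, and Apol10a were among the genes that fell with the least spread. Apol10a, of the apolipoprotein L family, read 11, 10.47, 11, 10.85 and 10.23 against 8.47, 7.28, 7.76, 7.78 and 7.25 (-3.00 ± 0.11, 8.02-fold lower). Ido1, which degrades tryptophan, read 9.52, 9.91, 9.95, 10.18 and 10.17 against 7.15, 6.87, 6.95, 6.88 and 7.39 (-2.90 ± 0.13). The nuclear body protein Sp100 changed by -2.04 ± 0.10 and the class II regulator Ciita by -1.66 ± 0.11. In the cell death list 9 of 21 fell and 3 rose, or 10 and 3 on the shifted scale; 5 fell without any one of B650, B648 or B562, and 6 rose without B562. The inflammatory caspases Casp4 and Casp1 changed by -1.29 ± 0.11 and -1.11 ± 0.14, and the pore-forming Gsdmd by -0.91 ± 0.15. The necroptosis kinase Ripk3 rose by 0.71 ± 0.10 and its effector Mlkl by 0.42 ± 0.08.

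The circadian list fell in 10 of 16 members and rose in 1. Per2, a repressor of the clock, changed by -1.13 ± 0.16 and the clock output factors Dbp and Hlf by -0.90 ± 0.23 and -1.16 ± 0.32. The fall was uneven: 5 of 16 fell without B650 or without B562, and 0 fell in the 2 F mice alone, where Hlf changed by -0.15 and -0.11 against -1.58 to -2.05 in the B mice. Adjacent levels of Dbp were 8.31 in F536 and 10.79 to 11.34 in the other 4 mice. Usp2, a deubiquitinase whose transcript follows the clock, fell evenly from 10.57, 11.39, 11.12, 11.43 and 11.39 to 8.46, 8.98, 8.26, 8.86 and 8.5 (-2.57 ± 0.12). The time of day at which tissue was taken was not used here. In the p53 list, 5 of 20 rose and 6 fell, with the stress-response gene Sesn1 lowest at -1.99 ± 0.12.

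**Figure D3:**
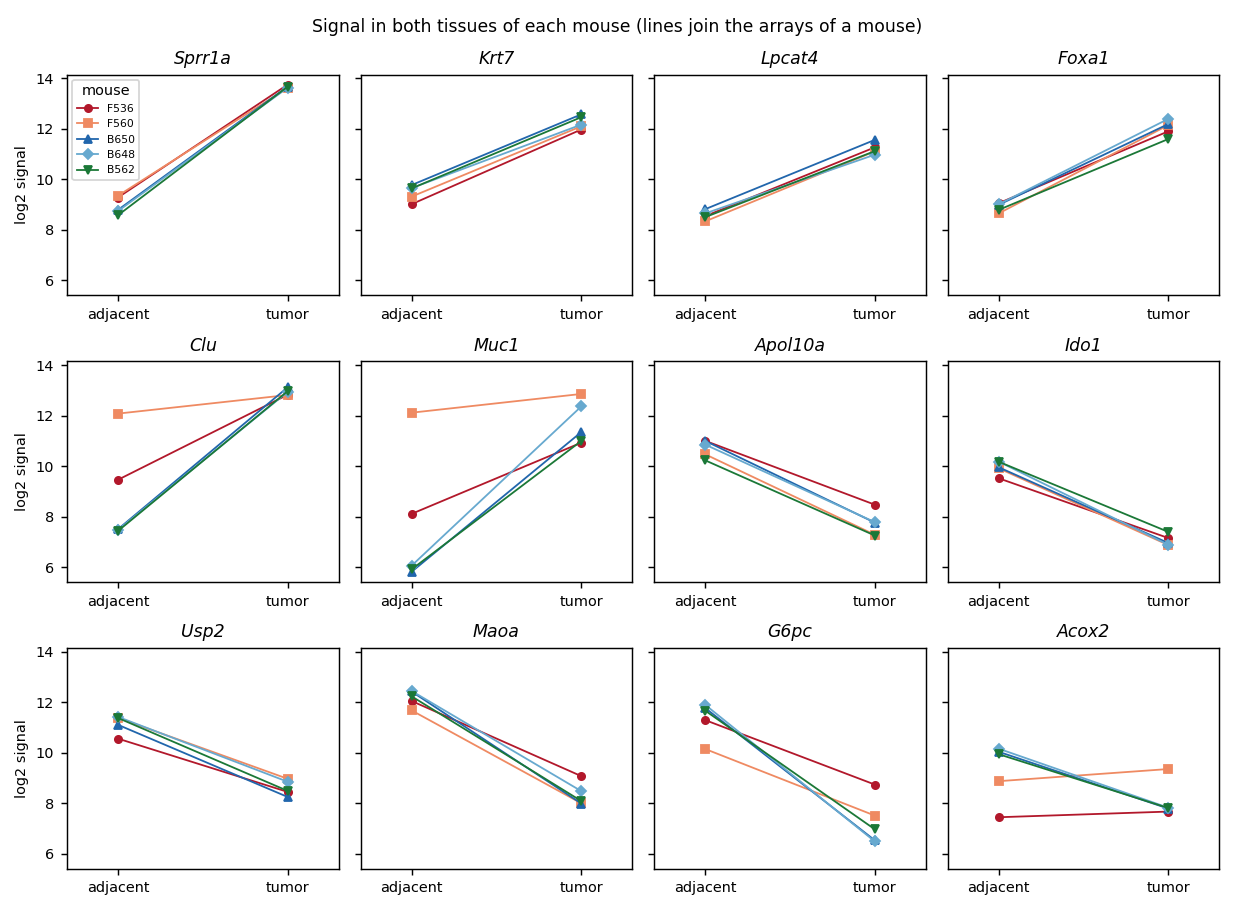
Log2 signal (vertical, the same scale in each panel) in adjacent tissue and tumor for 12 genes; each line joins the 2 arrays of a mouse. Sprr1a, Krt7, Lpcat4 and Foxa1 rise and Apol10a, Ido1, Usp2 and Maoa fall along nearly parallel lines, Clu and Muc1 start high in F560, and Acox2 falls only in the 3 B mice.

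Some changed genes lay side by side on a chromosome. Runs of at least 3 neighbouring coding genes that all changed at least 2-fold in the same direction numbered 2 upward and 10 downward. Upward, Cfap69, Steap2 (a metal reductase) and Steap1 rose by 1.43, 1.49 and 1.39, and the gastrokines Gkn1, Gkn2 and Gkn3 formed the other run. Downward, the acetyltransferase genes Nat8f5, Nat8, Nat8f2 and Nat8f4 fell with differences from -2.85 to -2.25, and each had 5 adjacent values above its 5 tumor values. Cd7, Sectm1b and Sectm1a, a T cell surface protein and relatives of its ligand, changed by -2.80, -1.71 and -1.26. Ehhadh, a peroxisomal enzyme, Map3k13 and Tmem41a changed by -1.17, -1.72 and -1.38 although they share no family. The other downward runs held apolipoproteins (Apoa1, Apoc3, Apoa4), cytochromes (Cyp2c38, Cyp2c67, Cyp2c68, and Cyp3a44, Cyp3a11, Cyp3a25), lymphocyte GTPases (Gimap4, Gimap6, Gimap7), killer cell receptors (Klrh1, Klra17, Klra5), class II genes (H2-Ab1, H2-Aa, H2-Eb1) and the processing genes named above. Members of the Nat8, Cyp and Klr families are similar in sequence, and how far their probes share signal was not tested.

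Other cell types were read through their markers, beside 16.8% of all genes risen and 11.1% fallen. Of 17 enteroendocrine genes 7 fell and 0 rose, 2 falling in the F mice alone and 12 in the B mice alone. The median of the list was -0.01 and -0.17 in F536 and F560 against -1.17, -0.85 and -0.81 in B650, B648 and B562; whether the letters differ for the list was not tested. Paneth cell genes fell in 3 of 6, and goblet cell genes rose in 5 of 10 and fell in 0. Among tuft cell genes only 3 of 11 rose, but Avil, an actin-binding protein of tuft cells, went from 7.54 to 8.16 to 9.98 to 11.07 (2.84 ± 0.24), while Dclk1, their common marker, rose by 0.54 ± 0.16. Ret, a receptor of enteric neurons, rose from 7.36 to 7.59 to 8.82 to 9.70 (1.79 ± 0.13) in a neuron and glia list in which 2 of 12 rose and 1 fell (0 without F560, B650 or B562). Fibroblast genes rose in 7 of 14 and fell in 0; in the F mice alone 0 rose. Mast cell genes rose in 7 of 13, or in 5 on the shifted scale and without F536, B650, B648 or B562. Neutrophil genes rose in 3 of 14 (5 without F560, 6 without B648, 1 without B562), a share of 21.4% near that of all genes. Eosinophil genes rose in 0 of 8. Of 12 smooth muscle genes 0 rose and 1 fell, but the median difference was 0.48, 0.59, -1.63, 0.38 and -1.25 in the 5 mice. The tumors of B650 and B562 were therefore low in muscle transcripts, and the part of this in other differences was not tested. Ttr, a thyroid hormone carrier, was the single hepatocyte gene of 9 to change, from 7.24 to 9.69 to 10.73 to 11.80 (2.94 ± 0.28).

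**Figure D4:**
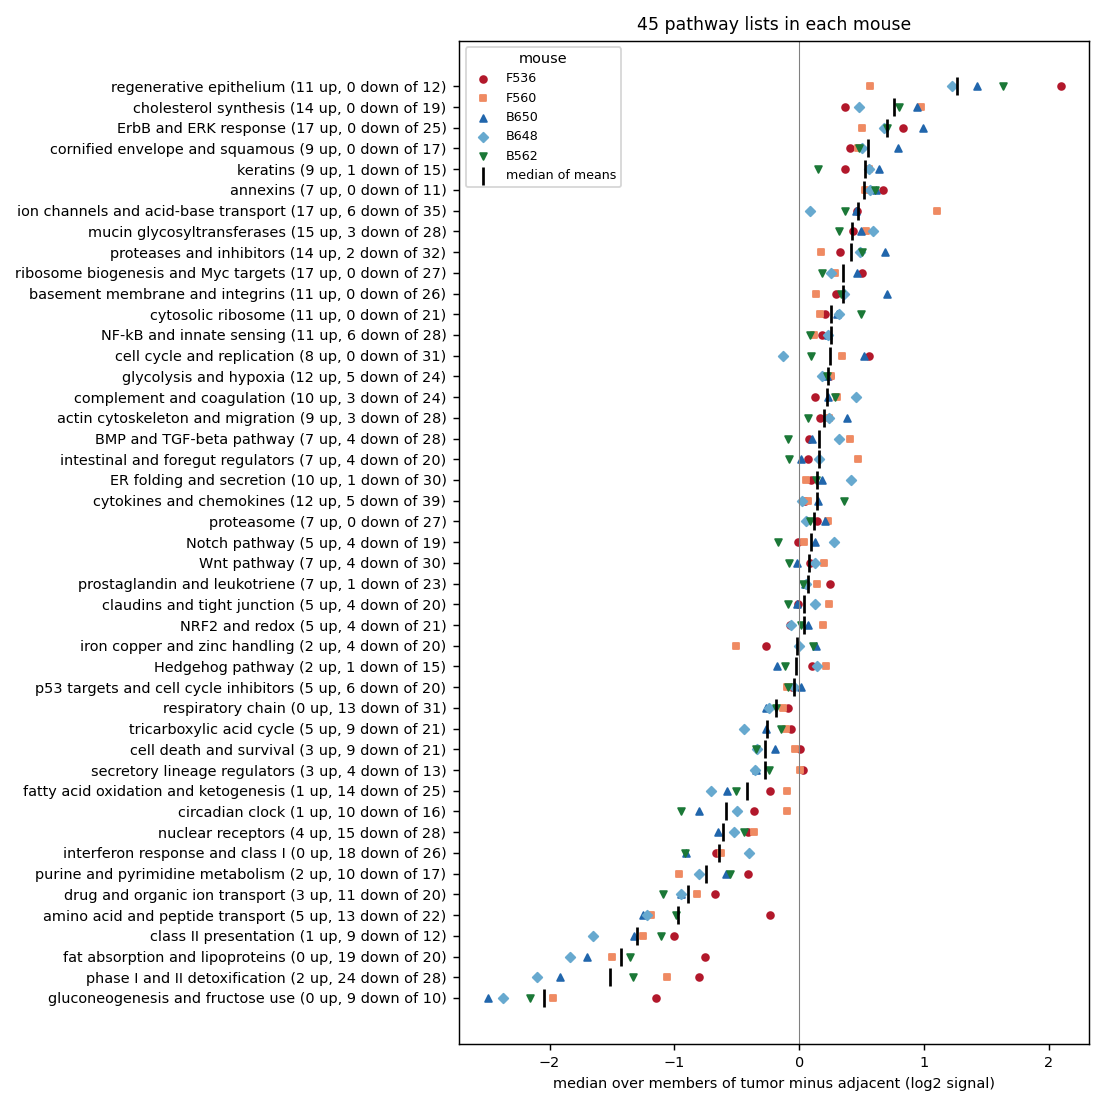
Median tumor minus adjacent difference (horizontal, log2 signal) over the measured members of 45 pathway lists; coloured symbols are the 5 mice, black bars the median of the mean differences, and brackets give members risen and fallen past an adjusted p of 0.05. Regenerative, cholesterol synthesis and ErbB and ERK lists lie highest, and gluconeogenesis, detoxification and fat absorption lists lowest, with F536 closest to 0 in these 3.

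A few large changes were far from even. Clusterin (Clu), a chaperone of injured epithelium, read 9.46, 12.08, 7.50, 7.47 and 7.43 in adjacent tissue and 12.83, 12.82, 13.12, 12.94 and 12.97 in tumors. The tumors nearly coincided, and the difference ran from 0.74 in F560 to 5.63 in B650 because adjacent levels differed. The membrane mucin Muc1 showed the same layout, with adjacent values of 8.11, 12.12, 5.81, 6.05 and 5.91 and tumor values of 10.93, 12.86, 11.35, 12.36 and 11. A2ml1, a secreted protease inhibitor, had the opposite layout. Its adjacent values were 5.64, 5.83, 6.05, 5.91 and 6.09 and its tumor values 10.70, 6.70, 9.07, 13.28 and 11.08, so its spread lay among the tumors. Slc5a12, a lactate carrier, read 5.53, 8.10, 12.85, 12.74 and 11.68 in adjacent tissue and 5.48 to 6.04 in tumors (-4.39 ± 1.08, adjusted p = 0.0192), so in F536 both tissues were low.

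Whether the difference itself depended on the first letter of the mouse ID, whose meaning is not given in the labels, was tested with an interaction of 2 F mice against 3 B mice. It was called for 46 genes (0.231%), of which 19 were also called over all 5 mice. In 11 of the 46 both F mice moved one way and all 3 B mice the other. The acinar list supplied 9 of the 46, and for 21 the F mice fell by at least 2-fold while the B mice did not. Reg2, a secreted protein of pancreas, read 11.94, 13.77, 5.49, 5.35 and 5.54 in adjacent tissue and 5.66 to 6.44 in tumors. The 2 F mice thus had adjacent levels that the others lacked. For 19 genes the B mice fell more. In each of these 19 genes adjacent tissue read lower in both F mice than in any B mouse. Acox2, a peroxisomal oxidase of bile acid synthesis, read 7.45, 8.88, 10.05, 10.17 and 9.95 against 7.68, 9.36, 7.80, 7.83 and 7.82. The tumor lay slightly above adjacent tissue in both F mice and well below it in each B mouse, and the interaction was -2.59 ± 0.16 (SE; adjusted p = 0.00239). G6pc fell more in the B mice too (-2.52 ± 0.23, adjusted p = 0.0127), as did Rab30 (-2.45 ± 0.32) and Bbox1 (-2.66 ± 0.30). Gp2, a membrane protein of acinar and M cells, fell in the F mice from 12.05 and 13.99 to 10.99 and 12.17 and rose in the B mice from 6.41 to 6.62 to 10.36 to 11.30. Its 5 tumor levels lay above the adjacent levels of the B mice and below that of F560. The adjacent tissue of the F mice also carried the acinar list, so letter and acinar content cannot be told apart. Genes outside that list, named after their values were seen, were high there too. The mucous gland gene Tff2 read 12.44, 13.74, 7.64, 7.21 and 7.76 in adjacent tissue and 14.24 to 14.39 in tumors, with an interaction of 5.60 (adjusted p = 0.00239). S100g, a calcium-binding protein of absorbing enterocytes, read 13.74, 13.45, 8.75, 8.06 and 9.25 in adjacent tissue and 12.73 to 13.36 in tumors (interaction 4.66, adjusted p = 0.00239). The iron exporter Slc40a1 (3.72, adjusted p = 0.00355) and the iron reductase Cybrd1 (4.29, adjusted p = 0.0465) were likewise higher in adjacent tissue of both F mice than in that of any B mouse.

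**Figure D5:**
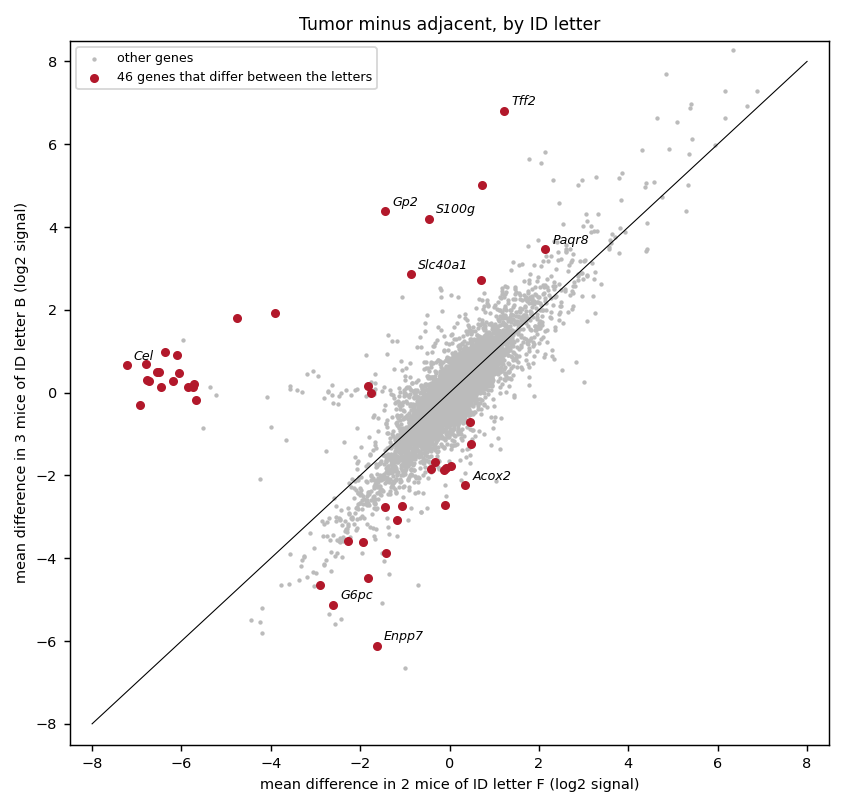
Mean tumor minus adjacent difference in the 2 mice of ID letter F (horizontal, log2 signal) against that in the 3 mice of letter B (vertical, log2 signal) for all genes, with the line of equality; red points are the 46 genes whose difference differed between the letters. Most genes lie near the line, the acinar gene Cel and its neighbours sit at the left with values near 0 in the B mice, and Acox2, G6pc and Enpp7 lie below the line.

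The tumor of mouse F525 had no adjacent partner and entered none of these fits. Of the 671 genes that rose at least 2-fold, 615 (91.7%) stood above all 5 adjacent arrays in that tumor, against 27.2% of all genes. Of the 645 that fell, 600 (93%) stood below all 5, against 24.8% of all genes. Sprr1a read 13.76 there, Sptssb 11.85, Krt7 12.40 and Mboat1 12.29, and Ido1 read 7.56 and Maoa 8.51. A2ml1 was at 5.92, within its adjacent range. The adjacent arrays in this comparison are the same ones that chose the genes, so only the tumor value is separate.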

How the data were processed

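Total RNA of tumor and adjacent duodenum from 5 mice was measured on 10 arrays. The authors deposited log2 signal per transcript cluster, made with Affymetrix Expression Console 1.1 on the mm9 build, per the submitters' processing notes. How background was corrected and how arrays were normalized is not given in the sources used here. No detection call was used, and the number of arrays limits the precision. Array medians lay between 7.14 and 7.26, and no further scaling was applied. Of 35556 clusters, 21789 had 1 symbol, 1621 several and 12146 none; only the first were used. Names were updated by gene identifier with a RefSeq table of GRCm38.p6 for 21698 clusters, and 91 kept the platform's symbol. Where a gene had more than 1 cluster (999 genes), its brightest on average stood for it, and 19938 genes remained. Promoters came from RefSeq on the same build for 15614 of them.

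Tumor minus adjacent was tested with limma 3.58.1 in R 4.3.3, with mouse as a fixed block, moderated two-sided tests and Benjamini-Hochberg adjustment over all genes at 0.05. The interaction between ID letters used the same blocks. Mouse IDs in the labels give the pairing. Deviations from the tissue means, correlated over genes, gave r = 0.28, 0.22, 0.29, -0.02 and 0.36 for tumor and adjacent tissue of F536, F560, B650, B648 and B562. For tumor and adjacent tissue of different mice r ran from -0.21 to 0.19. The tumor of B648 gave r = 0.19 with adjacent tissue of F560, above the value of its own pair. Both fits were also run on simulated data with noise independent between genes. The outcome of that run is not given here, and no result rests on it. Named genes are Lrig1, the 25 risen and 25 fallen genes with the largest difference in the same direction in all 5 mice, the 10 of each sign with the largest moderated t past 2-fold, the 12 with the largest SD over mice, up to 5 members per list and direction, the 5 of each sign with the largest interaction, and runs of at least 3 neighbours. Known stomach, enterocyte and acinar genes, predicted genes and large receptor families were left out of all but the list members and runs; genes named after their values were seen are marked so. The members, the 66 lists and the tests were chosen with earlier results of these data known. Of 1409 list entries, 105 were not measured. Alternatives covered the variance model, the block, scaling, dim genes, clusters, array weights, all 14 arrays, and leaving out mice.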

Additional observations from a re-analysis of the deposited data

Results flagged for a closer look

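Within-mouse differences of 144 genes or lists were searched for a mouse that stood apart from the other 4, by Dixon's test at 95%, which chance meets in about 1 in 20 groups; 4 did. Mboat1 differed by 3.32 in F536, below the other mice. The median of the mast cell list was 0.58 in F536, that of the amino acid and peptide transport list -0.23 in F536, and that of the cornified envelope list 0.80 in B650. No cause was tested for these.

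The tumor minus adjacent difference itself differed between mice of ID letters F and B for 46 genes. As the difference in B mice minus that in F mice, it was 7.07 for Try5, 7.05 for Try10, 7.01 for Reg2, 6.63 for Pnliprp1, 6.55 for Pla2g1b, 6.0 for Pdia2, 5.81 for Gp2 and 5.51 for Sycn, most of them made by pancreatic acinar cells. Genes of the same sign outside that cell type included Tff2 (5.60), S100g (4.66), Cybrd1 (4.29), Slc40a1 (3.72), Meis2 (2.01) and Slc37a2 (1.99). The other sign was seen for Bbox1 (-2.66), Pcp4l1 (-2.61), Acox2 (-2.59), G6pc (-2.52), Rab30 (-2.45) and Dnase1 (-1.75), where the difference was more negative in the B mice. In each of these genes adjacent tissue read lower in both F mice than in any B mouse. Rab30 read 7.02 and 8.42 in adjacent tissue of the F mice and 9.74 to 10.35 in that of the B mice. The trypsinogens Try5 and Try10 are near-identical copies, and their probes may share signal.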

How the results depend on the processing

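A fit with no replicate block called 4859 genes against 5575, a count that does not test whether the pairs are right. With 1 mouse left out at a time the count ran from 4038 (without B650) to 5562, that of genes risen at least 2-fold from 607 to 716, and that of fallen ones from 576 to 723. In the 2 mice of ID letter F alone 1701 genes passed, with fewer samples, and in the 3 of letter B 4805. The interaction between letters was called for 46 genes, and for 19 (without B650) to 135 (without F536) with 1 mouse left out, where letter F can hold a lone mouse whose spread is assumed to be like that of the others. Of 442 named genes past the threshold, 442 kept their direction in each of the 15 settings that held them. Of them 393 passed in each of the 8 settings that kept every mouse and held the gene. Whichever mouse was left out, 375 passed. The setting without the dimmest 25% of genes tested 14953 genes, and a gene absent from it was not counted against. Letter F alone lost 173 and letter B alone 28. The kept direction was largely fixed in advance, since the settings reuse the same arrays. Many named genes were also chosen for 1 shared direction in all 5 mice. Shifting arrays to the same median turned the signs of the small medians of the Wnt, claudin, redox, goblet, tuft, hepatocyte, eosinophil and prostaglandin lists. Such a shift moves the mean difference of every gene by the same amount, so that medians near 0 change sign. Over all genes the median went from 0.05 to -0.03. The causes of the other changes were not tested. Signal over background could not be judged, since no detection call was used.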

Other observations

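Several further lists moved little or in both directions. All counts of this section stand beside 16.8% of all genes risen and 11.1% fallen. Shares risen and fallen were 23.3% and 13.3% in the Wnt list, 13.3% and 6.67% in the Hedgehog list and 10% and 20% in metal handling. In the Wnt list 7 of 30 genes rose and 4 fell (1 without B650, B648 or B562, and 0 in the F mice alone), with the adhesion receptor Cd44 at 2.97 ± 0.15 (SE) and the receptor Ephb3 at 1.68 ± 0.14 on one side, and the feedback gene Axin2 (-0.62 ± 0.14) and Sp5 (-0.77 ± 0.09) on the other. In the Notch list 5 of 19 rose (3 without B650 or B648) and 4 fell (1 without B650, B648 or B562), with the target Hes1 at 0.77 ± 0.14, the ligand Jag1 at 0.66 ± 0.09 and the ligand Dll1 at -1.03 ± 0.15. Among genes of the BMP and TGF-beta pathway 7 of 28 rose and 4 fell (2 without B650, B648 or B562); the activin subunit Inhba (1.82 ± 0.26) and its binding inhibitor follistatin, Fst (1.75 ± 0.27), both rose, while Bmp3 fell (-1.18 ± 0.13). In the Hedgehog list 2 of 15 rose (0 without F536 or B648, 1 without F560 or B650) and 1 fell (0 without F536, B650 or B562, 2 without F560).

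Redox genes changed in both directions: 5 of 21 rose and 4 fell, with haem oxygenase Hmox1 at 0.95 ± 0.12 and glutathione reductase Gsr at 0.73 ± 0.08, against glutathione peroxidase Gpx4 at -0.97 ± 0.11 and catalase (Cat) at -0.94 ± 0.14. In metal handling, 2 of 20 rose (6 without F560, 1 without B650 or B562) and 4 fell; the copper-dependent iron oxidase Heph changed by -1.32 ± 0.12 and the copper carrier Slc31a1 by -0.68 ± 0.08. The iron reductase Cybrd1 rose on average (3.30 ± 0.81, adjusted p = 0.0195 in limma), with 13.54, 12, 8.12, 7.92 and 8.62 in adjacent tissue and 13.03 to 13.70 in all tumors. Its difference depended on the ID letter (5.02 on average in B mice and 0.73 in F mice, interaction adjusted p = 0.0465). Claudins, the seals between epithelial cells, rose in 5 of 20 and fell in 4 within the tight junction list, with Cldn2 at 2.12 ± 0.21, Cldn1 at 1.39 ± 0.17 and Cldn15 at -0.95 ± 0.12. Over all genes, 67 changed at least 2-fold on average without passing the test.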
